A study of Mus musculus with 7 samples.

Results

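Of the 66841 H3K27ac peaks merged over the series, 3628 lay at a promoter and held less signal 12 h after NeuroD1 induction than both before it and at 48 h. H3K27ac, acetylation of lysine 27 of histone H3, was profiled by ChIP-seq in mouse embryonic stem (ES) cells of the A2Lox line, an engineered line in which HA-tagged murine NeuroD1, a proneural bHLH transcription factor, is expressed from a dox-inducible promoter. There were 2 libraries without dox (0 h), 2 with dox (500 ng/ml) at 12 h and 2 with dox at 48 h, all from the same line, which was grown on MEF feeders and then without them. The 6 libraries held 6283103 to 8112895 reads in peaks. No line without the transgene was given dox, so a response to dox and a response to NeuroD1 cannot be told apart.

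The peaks were chosen by their own counts. Each library was scaled to the mean library total, and peaks touching the 2 kb on either side of a protein-coding transcription start site (TSS) were taken as promoter peaks. Of 16416 promoter peaks, 13358 had a mean raw count of at least 20, and a peak became a member when the lowest of its 4 values at 0 h and 48 h was at least 1.2 times the higher of its 2 values at 12 h. The 3628 members were 27.2% of those 13358 peaks and were nearest to 3532 genes. The other 9730 peaks are called other promoter peaks here. The fall to 12 h and the rise after it are thus properties of the selection and are given as a description, without a test.

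Acetylation of H3K27 is placed by p300 and CBP and removed by histone deacetylases, and it marks promoters and enhancers in use. At promoters it typically flanks the TSS of transcribed genes, many of which sit in CpG islands. The measurement is a population average, so fewer cells with the mark and less mark per cell cannot be told apart.

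The promoters of 5 members are printed here because their signal fell furthest at 12 h relative to the other times after a correction for GC content, among members with a mean raw count of at least 100. The promoter of Hmgcs1 is shown for the cholesterol genes described further on. Each sequence is the RefSeq window of 300 bases, 250 before and 50 after the annotated start, on GRCm38.p6, written along the gene. Capitals mark every match, on either strand, to the 15 motifs searched, among them the GC box GGGCGG, the CCAAT box, the ETS site CCGGAAG and the E-boxes CAGCTG and CACCTG.
Tmtc4, chr14:122983234-122983533, minus strand: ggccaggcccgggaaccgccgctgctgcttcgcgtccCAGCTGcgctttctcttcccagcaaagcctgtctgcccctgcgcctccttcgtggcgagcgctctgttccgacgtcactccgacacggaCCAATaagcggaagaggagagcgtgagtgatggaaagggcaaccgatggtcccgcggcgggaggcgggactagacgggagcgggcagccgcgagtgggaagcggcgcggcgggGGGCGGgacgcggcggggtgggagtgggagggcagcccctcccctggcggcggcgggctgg
Tmem8b, chr4:43669057-43669356, plus strand: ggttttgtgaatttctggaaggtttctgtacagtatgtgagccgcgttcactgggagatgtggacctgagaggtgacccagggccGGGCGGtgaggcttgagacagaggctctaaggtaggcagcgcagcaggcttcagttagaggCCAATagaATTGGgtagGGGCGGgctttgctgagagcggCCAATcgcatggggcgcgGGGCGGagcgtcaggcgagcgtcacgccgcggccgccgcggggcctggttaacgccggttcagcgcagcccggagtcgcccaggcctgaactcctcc
Soat1, chr1:156474279-156474578, minus strand: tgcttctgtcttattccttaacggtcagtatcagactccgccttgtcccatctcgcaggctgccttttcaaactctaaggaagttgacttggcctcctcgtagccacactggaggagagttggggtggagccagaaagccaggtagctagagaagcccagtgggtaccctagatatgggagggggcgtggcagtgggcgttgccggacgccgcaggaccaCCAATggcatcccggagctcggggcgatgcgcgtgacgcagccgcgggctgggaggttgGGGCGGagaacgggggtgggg
Zfp606, chr7:12478055-12478354, plus strand: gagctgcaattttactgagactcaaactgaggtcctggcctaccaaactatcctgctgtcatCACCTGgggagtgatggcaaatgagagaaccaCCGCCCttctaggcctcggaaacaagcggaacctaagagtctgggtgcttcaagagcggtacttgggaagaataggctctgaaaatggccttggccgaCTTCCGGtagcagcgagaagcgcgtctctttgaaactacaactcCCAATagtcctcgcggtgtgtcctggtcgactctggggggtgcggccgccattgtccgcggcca
Iqcb1, chr16:36828150-36828449, plus strand: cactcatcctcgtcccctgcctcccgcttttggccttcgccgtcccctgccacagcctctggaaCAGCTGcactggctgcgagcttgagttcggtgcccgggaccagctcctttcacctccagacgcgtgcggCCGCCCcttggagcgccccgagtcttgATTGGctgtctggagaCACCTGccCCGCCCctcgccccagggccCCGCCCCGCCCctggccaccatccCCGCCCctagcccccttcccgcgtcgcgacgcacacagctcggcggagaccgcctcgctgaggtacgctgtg
Hmgcs1, chr13:119690101-119690400, plus strand: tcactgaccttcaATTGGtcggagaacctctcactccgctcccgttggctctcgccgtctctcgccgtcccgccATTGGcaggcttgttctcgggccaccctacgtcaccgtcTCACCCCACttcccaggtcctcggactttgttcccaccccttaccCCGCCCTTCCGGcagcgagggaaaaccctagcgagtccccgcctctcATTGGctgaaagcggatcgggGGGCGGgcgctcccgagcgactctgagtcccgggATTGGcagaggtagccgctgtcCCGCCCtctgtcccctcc
All 6 windows overlapped their peak, and each held at least 1 GC box and at least 1 CCAAT box. Their GC content ran from 55.7% in Zfp606 to 72.3% in Tmtc4. Tmem8b held 3 copies of each box, and Hmgcs1 held 4 CCAAT boxes. Over all members, 73.8% held a GC box and 38.5% a CCAAT box in the 300 bases around the start. For other promoter peaks it was 64.4% and 38.1%. Nothing is read from the 6 printed windows, which were picked.

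The median member stood at 0.637 and 0.628 of its 0 h mean in the 12 h libraries. At 48 h it stood at 1.199 in R1 and 0.932 in R2. The other promoter peaks were lower at 12 h as well, with medians of 0.841 and 0.827. Of all 13358 promoter peaks, 7591 (56.8%) had both 12 h values below the other 4, so the members are the stronger part of an order that most promoter peaks shared. Scaled counts are shares of the reads in peaks, so a loss at promoters and a gain at other peaks cannot be told apart. The 56.8% was also not corrected for GC. After GC correction the other promoter peaks had medians of 0.904 and 0.917 at 12 h. Of all reads in peaks, the members took 12.0% and 12.6% before induction, 7.94% and 7.88% at 12 h, then 14.7% and 11.4%.

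**Figure D1:**
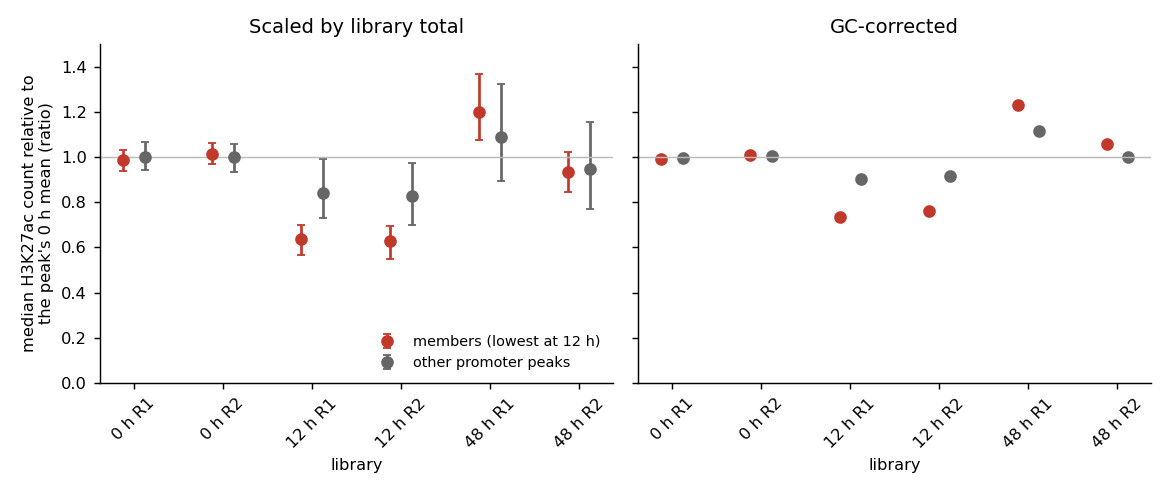
Median H3K27ac count of the 3628 members (red) and the 9730 other promoter peaks (grey) in each library, relative to each peak's mean at 0 h, with counts scaled by library total (left, bars give the quartiles over peaks) and after GC correction (right, medians only). Members fell to 0.637 and 0.628 at 12 h on the left and to 0.735 and 0.761 on the right, and the 48 h libraries differed from each other in both.

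No other time point set promoters apart to this extent. By the same rule applied to each time in turn, 448 promoter peaks were highest and 244 lowest at 0 h, 783 were highest and 285 lowest at 48 h, and 202 were highest at 12 h. The ratio that chose the members had a median of 1.33 and reached 3.32. It was at least 1.5 in 541 members (14.9%), at least 2 in 27, and under 1.3 in 1521 (41.9%). Just inside the threshold, Tenm3 and Nupl2 had 12 h values of 441 and 402, and of 147 and 109, beside lowest values at the other times of 529 and 176. Just outside it, Rassf7 had 516 and 443 at 12 h beside a lowest value of 619, and Cherp had 524 and 559 beside 671.

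The 12 h libraries held fewer reads in GC-rich peaks, taken over promoter and non-promoter peaks together. Over all peaks with a GC content of 65 to 70%, the median deviation from the peak's mean over the 6 libraries was -0.23 and -0.37 (log2) at 12 h, and in peaks of 40 to 45% it was 0.19 and 0.22. The 0 h libraries deviated the other way, by 0.15 and 0.26 in the GC-rich peaks. The 48 h libraries were split, at 0.38 in R1 and -0.15 in R2. Members were correspondingly richer in GC than other promoter peaks, with a median of 57.0% beside 53.3%. Their share rose from 1 of 116 promoter peaks at 30 to 40% GC and 2.04% at 40 to 45% to 41.1% at 55 to 60%, and then declined to 19.6% above 70%. The 202 peaks highest at 12 h had a median GC of 46.7%.

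**Figure D2:**
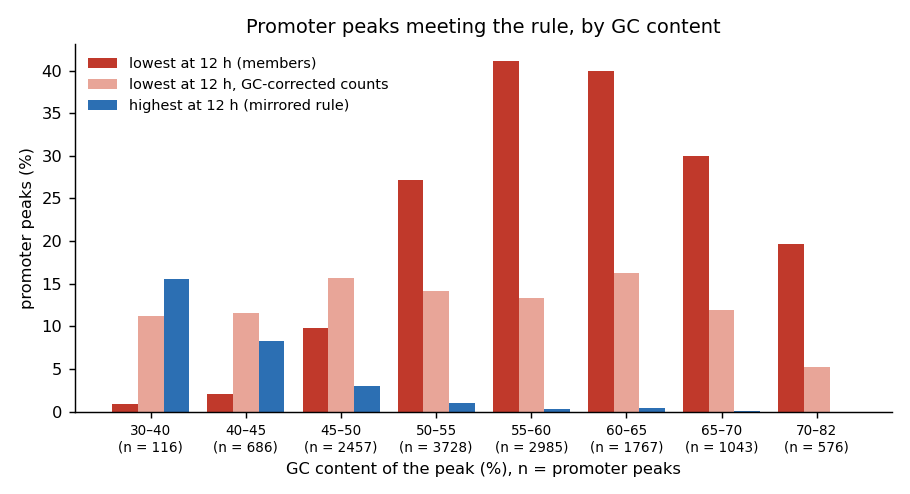
Share of promoter peaks with a mean raw count of at least 20 that met the rule (red), met it with GC-corrected counts (pink) or were highest at 12 h by the mirrored rule (blue), by the GC content of the peak in percent. Members reached 41.1% of the peaks at 55 to 60% GC, whereas with corrected counts the share lay between 5.21% and 16.3% in every bin.

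When a smooth curve of count against GC was removed from each library, 1845 promoter peaks met the rule. They included 1614 of the members (44.5%) and 231 peaks that were not members. Nearly all members with 45 to 50% GC met it again (230 of 242), compared with 398 of 1226 at 55 to 60%. These shares follow in part from the correction itself, which moves ratios up at low GC and down at high GC. The median ratio over all promoter peaks went from 0.950 to 1.01 at 45 to 50%, and from 1.15 to 0.994 at 55 to 60%. The median member then stood at 0.735 and 0.761 of its 0 h mean at 12 h, and at 1.23 and 1.06 at 48 h. The part of GC content in the fall of any one member was not tested.

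Among members with a mean raw count of at least 100, the largest ratio was that of Tmtc4, an endoplasmic reticulum protein of O-mannosylation. Its peak (mm10 chr14:122982573-122984089, over the TSS) went from 143 and 154 scaled reads before induction to 57.9 and 46.0 at 12 h, then to 234 and 137. Both 12 h values lay far below the other 4, and the ratio was 2.36, or 1.96 after GC correction. Iqcb1, which encodes a ciliary protein, held 129 and 150, then 55.8 and 55.2, then 165 and 118. Ptprs, a receptor tyrosine phosphatase of axons, held 131 and 158, then 57.9 and 62.6, then 210 and 143. Cox19, an assembly factor of cytochrome c oxidase, held 156 and 174, then 74.0 and 75.4, then 204 and 158. In each of these 48 h R1 was the highest library. Tmem8b, Klc2 (a kinesin light chain), Wdtc1 and Arhgef40 had ratios of 2.03, 2.02, 2.01 and 1.96. Soat1 (chr1:156473264-156475257), which esterifies cholesterol, was the least GC-rich of the strongest members at 48.8% and held 136 and 136 at 0 h, 66.5 and 72.7 at 12 h, then 149 and 137 at 48 h. Its ratio was 1.87 and barely moved with GC correction (1.84). Zfp606, a KRAB zinc finger gene, had 1.94 and 1.81.

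**Figure D3:**
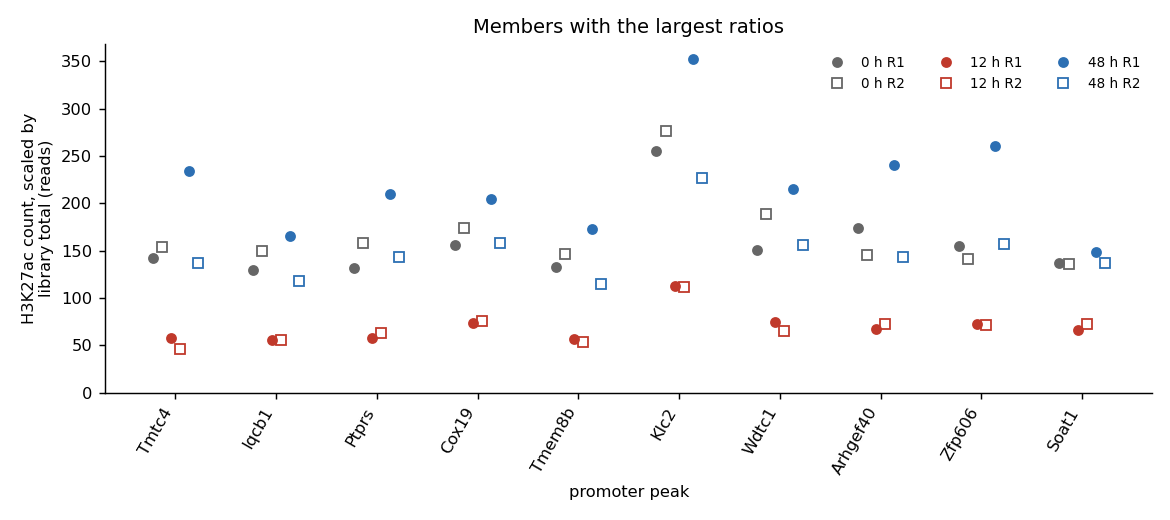
H3K27ac counts scaled by library total (reads) in the 6 libraries for the members with the largest ratios before or after GC correction, in order of the ratio. In each, both 12 h libraries (red) lay below all others, as the rule requires, and 48 h R1 (filled blue) was the highest library.

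The members poorest in GC lay in the range in which the 12 h libraries held more reads than average. Cdkal1, a tRNA-modifying enzyme, had 43.8% GC and held 139 and 142 at 0 h, 106 and 108 at 12 h, then 174 and 150 at 48 h. Flad1, which makes FAD, had 44.4% and held 138 and 133, then 84.7 and 83.7, then 114 and 114. Zkscan3, a zinc finger repressor of autophagy genes, had 45.1% and a ratio of 1.40 that rose to 1.69 with the correction. Hnrnpf, a splicing factor, and Mtln, a mitochondrial micropeptide, had 1.204 and 1.32. All 5 met the rule again with corrected counts. The correction raised ratios at low GC, with the median over all promoter peaks of 40 to 45% GC going from 0.685 to 0.895. This outcome thus followed largely from their selection, and nothing is read from it.

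The members with most reads were Mex3a (an RNA-binding protein), Midn, Kdm6b (an H3K27 demethylase), Trir and Phf23. Mex3a held 1927 and 1903 at 0 h, 1405 and 1529 at 12 h, then 2360 and 1862 at 48 h. Kdm6b held 1578 and 1531, then 1131 and 1064, then 2175 and 1559. The ratios of the 5 ran from 1.202 to 1.35, and none met the rule with corrected counts. Members were most frequent at intermediate counts, with 36.1% of the promoter peaks of 100 to 200 reads, 15.7% of those of 20 to 50 and 13.3% of those of 500 or more.

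Of the 24 gene lists compared, cholesterol synthesis had the highest share of members. Cells make cholesterol from acetyl-CoA through mevalonate and squalene, under SREBP factors that Scap escorts and Insig proteins retain when sterols are plentiful. The list had 26 promoter peaks at 23 genes, and 16 peaks (61.5%) were members, beside 27.2% of all promoter peaks. With GC-corrected counts 17 of the 26 (65.4%) met the rule, beside 13.8% of all. The median GC of the 26 peaks was 52.1%, and among those with 45 to 55% GC 12 of 17 were members, beside 20.3% of all promoter peaks in that range. The list stood out as 1 of 24 after the values were seen, and no test was made of it. The 24 lists were themselves chosen with earlier results of these data known.

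Early in the pathway, Hmgcs1 (chr13:119690231-119692103), which makes HMG-CoA, held 317 and 370 at 0 h, 205 and 203 at 12 h, then 352 and 292 at 48 h. The 12 h libraries were nearly equal, and the 48 h values came close to the range of 0 h. Pmvk and Mvd, a kinase and the decarboxylase of the mevalonate arm, had ratios of 1.37 and 1.26. Sqle, which oxidises squalene, held 295 and 287, then 174 and 200, then 298 and 289. Cyp51, the lanosterol demethylase, held 330 and 368, then 175 and 203, then 404 and 326. Sc5d, a desaturase near the end of the pathway, had the largest ratio of the list (1.64), with 169 and 186, then 71.8 and 83.7, then 181 and 138. Lss, Msmo1, Tm7sf2 and Dhcr7, other enzymes after squalene, had ratios of 1.29, 1.41, 1.33 and 1.58.

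Regulators were among the members too. Insig1 held 488 and 521 at 0 h, 336 and 324 at 12 h, then 551 and 514 at 48 h. Both 12 h values lay well under the other 4. Srebf1 had 2 member peaks, with ratios of 1.40 and 1.36, and Scap had 1.25, but Scap and Mvd did not meet the rule with corrected counts.

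The 10 peaks of the list that were not members included those of Idi1, Srebf2, Fdft1, Nsdhl, Ebp, Fdps and Hsd17b7 and a second peak of Hmgcs1. In 7 of the 10 both 12 h values were below the other 4, an order that 56.8% of all promoter peaks, members included, had. The mean of the 10 peaks at 12 h was 0.584 to 0.912 of their mean at the other times, compared with 0.462 to 0.694 in the 16 members. Idi1, Fdft1 and Fdps, whose peaks had 44.9 to 47.0% GC, met the rule with corrected counts.

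**Figure D4:**
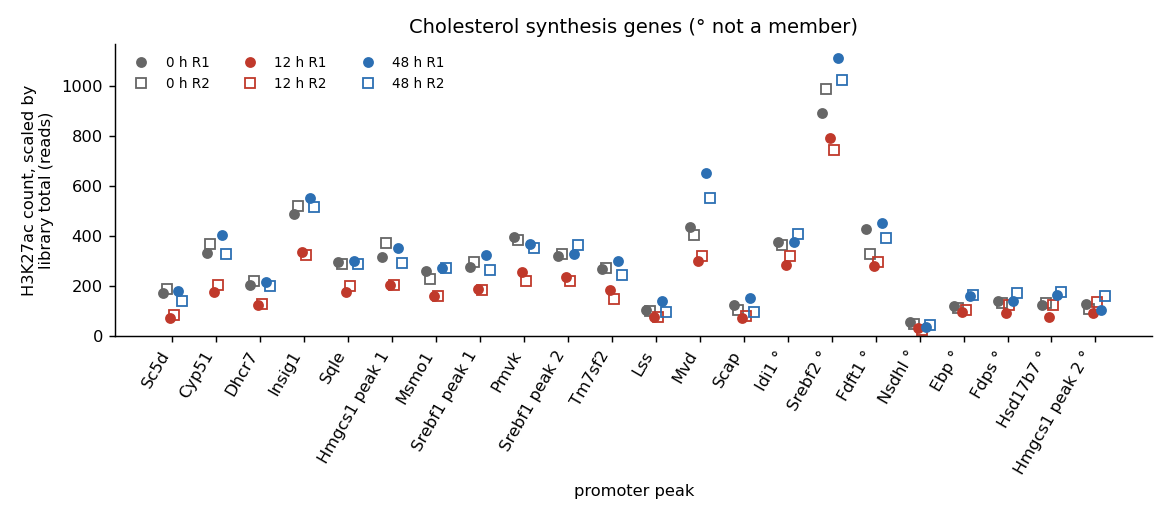
H3K27ac counts scaled by library total (reads) in the 6 libraries at 22 promoter peaks of the cholesterol synthesis list, with 14 members on the left in order of their ratio and 8 peaks that were not members (°) on the right. Red 12 h values lay under the 0 h (grey) and 48 h (blue) values in all 14 members, by the rule, and in 6 of the other 8. Over all promoter peaks, members included, the share with this order was 56.8%.

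After these values were seen, 37 further genes of lipid metabolism were looked up, and all of them are counted here. They had 40 promoter peaks, of which 19 (47.5%) were members and 17 (42.5%) met the rule with corrected counts. Fads2, a fatty acid desaturase, held 434 and 435 at 0 h, 269 and 201 at 12 h, then 638 and 453 at 48 h. Fads1, Scd1 (2 peaks), Elovl1, Elovl5, Acly, Acss2, Aacs, Fasn, Scd2, Nr1h2 (2 peaks), Npc1, Npc2, Rdh11 (2 peaks), Erlin1 and Soat1 were the other members. Elovl6, Abcg1 and Lpin1 were not, and Abcg1 held 111 and 121, then 159 and 136, then 121 and 126. A list of V-ATPase subunits, chosen because several stood near the top of the members, had 8 members of 19, and 5 of 19 met the rule with corrected counts. Its subunit Atp6v1g1 held 196 and 206, then 106 and 95.7, then 254 and 202. Neither list is independent evidence, since both were picked from these values. The letters TCACNCCAC, the core of the sterol regulatory element, were also looked up at this point. They stood in the 300-base window of 2 of the 26 cholesterol peaks (both of Hmgcs1), of 29 of 3628 members and of 134 of 13358 promoter peaks.

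The other lists lay nearer the background or under it. Proteasome subunits had 12 members of 41 and 11 with corrected counts (26.8%). Oxidative phosphorylation genes had 19 of 75 and 12 (16.0%), and genes named Zfp 99 of 409 and 78 (19.1%). The share of all promoter peaks with corrected counts was 13.8%. Wnt pathway genes, whose peaks had a median GC of 59.5%, had 21 members of 55, but 3 with corrected counts. Mitochondrial ribosomal proteins had 17 of 73 and 8. Among regulators of chromatin, acetyltransferases, deacetylases and bromodomain readers had 12 of 55, Polycomb subunits 8 of 38 and SWI/SNF subunits 4 of 28. Axon guidance genes had 13 of 60, FGF receptors and ERK feedback genes 8 of 37, and Notch genes 7 of 35. DNA replication had 8 of 46, and mitosis and cyclins 7 of 57. Aminoacyl-tRNA synthetases had 4 of 22, and 5 of 22 (22.7%) with corrected counts. Hox genes had 2 of 10 and clustered protocadherins 0 of 3.

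The members with most reads in these lists had ratios on both sides of the median member's 1.33. Dtx3, a Deltex ubiquitin ligase of the Notch list, had 1.53, and Ring1, a catalytic subunit of Polycomb complex PRC1, had 1.56, but Ring1 fell to 1.16 with the correction. Tcf7l2, a nuclear effector of Wnt signalling, held 745 and 788, then 386 and 375, then 966 and 536, so its 48 h libraries stood on either side of those of 0 h. Gsk3b, the kinase that marks beta-catenin for destruction, had 1.22, and 1.04 with the correction. Cdkn1b, the cell cycle inhibitor p27, held 554 and 547, then 389 and 345, then 889 and 638. Psma7 and Psma3, subunits of the proteasome core, had 1.38 and 1.21, and Sdhb and Sdhd, subunits of succinate dehydrogenase, had 1.34 and 1.22. Dusp4, a phosphatase that limits ERK signalling, held 837 and 841, then 623 and 567, then 1406 and 1009, so both 48 h values lay above those of 0 h. The ratios of Dpf2 and Smarce1 of SWI/SNF were 1.33 and 1.31, of Kars and Yars, which charge lysine and tyrosine tRNAs, 1.34 and 1.205, and of Mrpl12 and Mrps34 of the mitochondrial ribosome 1.29 and 1.21.

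**Figure D5:**
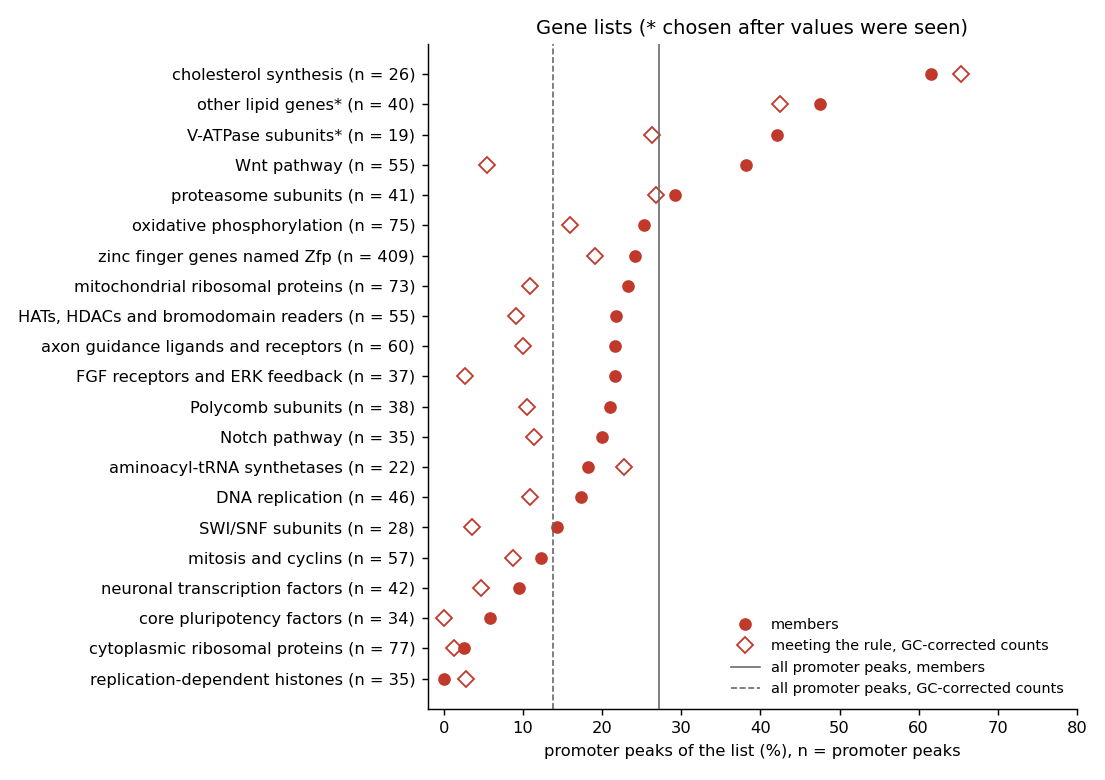
Share of each list's promoter peaks that were members (filled circles) or met the rule with GC-corrected counts (open diamonds), in percent, for lists with at least 15 promoter peaks, with lines at the shares of all promoter peaks (27.2% and 13.8%). Cholesterol synthesis stood highest on both (61.5% and 65.4%), while cytoplasmic ribosomal protein and histone genes had the lowest shares of members, and core pluripotency factors had none with corrected counts. An asterisk marks lists chosen after values were seen.

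Some lists held few members. Cytoplasmic ribosomal protein genes had 2 members of 77 (Rpl18 and Rpl27), replication-dependent histone genes 0 of 35, and core pluripotency factors 2 of 34 (Lin28a and Tcf3). Tcf3 is the symbol of a gene for an E protein, a bHLH partner, and without it the list had 1 member of 30. Neuronal transcription factors had 4 of 42, among them Sox11 and Tcf3. The histone peaks had a median GC of 44.7%, and at 40 to 45% GC 2.04% of all promoter peaks were members. The rule bars any peak whose 12 h values reach those of 0 h or 48 h. Core pluripotency peaks had medians of 0.696 and 0.798 of their 0 h mean at 48 h, and 16 of 34 were called lost. Neuronal factor peaks had medians of 1.11 and 1.13 at 12 h. The low shares of the histone, pluripotency and neuronal factor lists were thus not read as traits of their genes. Ribosomal protein peaks had a median GC of 49.1%. Of their 64 peaks with 45 to 55% GC, 2 were members, beside 20.3% of all promoter peaks in that range. Their medians were 0.885 and 0.954 of the 0 h mean at 12 h, and 1.06 and 1.03 at 48 h. The cause of their low share was not tested. The ES markers were present throughout. Of 6 ES markers, 5 had a promoter peak of at least 20 reads, with a summed scaled count of 13882 and 14118 at 0 h, 15439 and 15303 at 12 h, then 9736 and 12020 at 48 h. None was a member. Of 8 fibroblast markers, which feeder cells would carry, 2 had a promoter peak. Their summed count was 67.7 and 57.3 at 0 h, 56.8 and 49.7 at 12 h, then 154 in R1 and 66.2 in R2 at 48 h. Of 6 neuron markers 5 had one, with 742 and 690 at 0 h, 577 and 579 at 12 h, then 1184 and 863 at 48 h, and 1 peak of Elavl4 was a member.

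Members differed from the other promoter peaks in features that the rule did not use. Their peak covered a TSS in 91.2%, compared with 74.9%. In 10.8% the peak itself covered start sites of different genes on both strands, compared with 6.37%. A peak that covers no TSS cannot count here, so this feature is not separate from the one before. Their median ratio of observed to expected CpG was 0.67 beside 0.57, and median widths were 1598 and 1600 bases. Among peaks of 50 to 60% GC the order was the same. A TSS was covered in 94.1% beside 81.0%, start sites on both strands in 13.8% beside 7.76%, and the CpG ratio was 0.64 beside 0.55. Members in this range were still richer in GC, with a median of 55.5% beside 54.0%, so a difference in GC content remains in this comparison. Of 1939 genes with several promoter peaks of at least 20 reads, 659 had a member and 92 had at least 2. Among all 11037 genes with such a peak, 3532 had a member.

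The motif content of the 300 bases around the start differed in the same sense. The GC box GGGCGG stood in 73.8% of members and 64.4% of other promoter peaks (67.0% of all), the ETS site CCGGAAG in 20.9% and 15.6% (17.0% of all), and the NRF1 letters GCGCANGCG in 16.0% and 11.9% (13.0% of all). In peaks of 50 to 60% GC, where members were still richer in GC, these shares were 71.3% and 65.0%, 25.5% and 16.3%, and 17.8% and 13.1%. The CCAAT box was in 38.5% and 38.1%. The TATA box TATAAA was in 4.24% and 6.63%, and the E-box CAGATG, bound by NeuroD1 and its partners, in 9.26% and 11.9%. Both strands were searched, and a match is a run of letters, not a site shown to be bound. The remaining motifs were TGACGTCA of CREB, AAGATGG of YY1, the octamer ATGCAAAT, the E-box CAGCTG, the E-box CACCTG, the E-box CACGTG, TTTCGCGC of E2F and the palindrome TCTCGCGA. The CREB letters stood in 3.91% and 2.83%, the octamer in 1.13% and 1.64%, CACCTG in 16.2% and 18.6%, CACGTG in 9.26% and 10.1%, and CAGCTG in 14.3% and 14.0%.

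The 48 h and 0 h counts of the members are set side by side as a description. The rule used these counts and admits no peak that is low at either time, so it limits how many members can differ between 0 h and 48 h, and nothing is read from the counts of calls. In edgeR's quasi-likelihood fit over all 66841 peaks, 57 members were gained and 1 was lost at an adjusted p under 0.05, beside 8.56% of all peaks gained and 5.45% lost. This is 1.57% and 0.0276% of the members, and for the other promoter peaks it was 6.09% and 4.55%. At an unadjusted p under 0.05, 202 members (5.57%) were higher and 19 (0.524%) lower, beside 14.1% and 12.8% of all peaks. The median log2 difference of the members was 0.09. The counts changed with the library left out. Without 48 h R2, 774 members were gained and 2 lost. Without 48 h R1, 22 were gained and 173 lost. Without 0 h R1 or 0 h R2, 5 and 1 were gained. With a GC offset 390 members (10.7%) were gained and 3 lost, beside 12.0% of all peaks and 12.7% of other promoter peaks gained.

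Among called members with a mean raw count of at least 100, Meis2, Pclo and Rtkn had the largest log2 differences between 48 h and 0 h. Pclo, a scaffold of the presynaptic active zone, held 95.4 and 79.6 at 0 h, 45.03 and 44.2 at 12 h, then 232 and 140 at 48 h, a log2 difference of 1.08, or 0.96 without 0 h R2. Rtkn held 150 and 126, then 96.5 and 79.1, then 376 and 192. Meis2, a homeobox factor, held 98.5 and 66.9, then 50.4 and 49.7, then 278 and 98.0, so that 48 h R2 overlapped the 0 h libraries. Without 48 h R1, the log2 differences of Meis2 and Rtkn were 0.24 and 0.47. The call of Meis2 was lost there, without either 0 h library and with DESeq2, and that of Rtkn without any of the same 3 libraries. Sox11, a neural SoxC factor, held 515 and 429, then 344 and 297, then 1176 and 682, and lost its call, as Pclo did, without 0 h R2. The 1 lost member was at Ralb, a small GTPase, named after its values were seen because it stood alone. It held 90.3 and 76.4 at 0 h, 30.0 and 35.9 at 12 h, then 45.5 and 44.7 at 48 h, and its call was lost with DESeq2, with the 4 libraries of those times and without any single 0 h or 12 h library. In the cholesterol list, Mvd held 437 and 405, then 301 and 321, then 652 and 553, a log2 difference of 0.51 at 48 h vs 0 h, and its call was lost with DESeq2, with a replicate block, with the 4 libraries and without any single 0 h or 12 h library. The log2 differences of the other 15 member peaks of the list lay between -0.16 and 0.18.

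The peaks around the members gave a reading at 12 h from counts the rule did not use. There were 5490 non-promoter peaks whose nearest start site, within 50 kb, was that of a member, and 19831 for other promoter peaks. At 12 h vs 0 h, 311 neighbours of members (5.66%) were gained and 184 (3.35%) were lost, beside 9.93% and 6.03% of all peaks, promoters included, and 12.4% and 2.44% of all non-promoter peaks. For neighbours of other promoter peaks it was 8.98% and 2.35%. The median log2 difference was -0.10 beside 0.02. Within 10 kb of the start, 63 of 2070 neighbours of members (3.04%) were gained and 100 (4.83%) lost, beside 6.94% and 2.84% around other promoter peaks. At 10 to 50 kb 7.25% were gained and 2.46% lost, beside 10.3% and 2.04%. The 2 sets also differed in GC content, with medians of 49.8% and 48.5%. With a GC offset, losses were 4.19% and 4.02% and lay closer together, while gains were 5.19% and 8.27%. Within 10 kb, where the medians of GC content were 50.7% and 48.5%, the offset brought losses to 5.27% and 4.85%, also closer together. Gains there were 3.19% and 6.20%. The difference between the sets was not tested, as neighbouring peaks are not replicates. The counts depended on the libraries as well. They fell to 57 gained and 7 lost without 0 h R2, to 118 and 28 without 0 h R1, to 108 and 29 without 12 h R1 and to 95 and 9 without 12 h R2, and rose to 613 and 540 without 48 h R1 and to 609 and 554 without 48 h R2.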

How the data were processed

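H3K27ac ChIP-seq was available for 6 libraries, 2 per time point; the Input library was not analysed here. The deposited values are raw read counts per merged peak: the authors aligned to mm10 by Bowtie2 with soft clipping, used SAMtools 0.1.19, called peaks with MACS2 against Input, merged them over samples and counted with QuasR. No column was left out (0). Counts were scaled by library total. Start sites were those of protein-coding transcripts in GENCODE M21 basic, and 58 scaffold peaks had no annotation. GC content was computed from GRCm38.p6 per peak, and the GC correction subtracted a lowess curve (span 0.3) of log2 count (pseudocount 8) against GC. Tests used edgeR 4.0.16 (quasi-likelihood, all 6 libraries, library totals as offsets, Benjamini-Hochberg over all peaks, 3 residual degrees of freedom), with DESeq2 1.42.0 as an alternative, and were tested on simulated data. The biological coefficient of variation was 14.9%. The labels do not say whether replicates came from separate cultures, so p-values measure only the spread between these libraries. Replicates differed by more than sampling noise (chi-square per degree of freedom 1.42 to 5.54). RefSeq promoters matched 2817 of 3532 member genes.

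Members and lists were chosen with earlier results of these data known. Members named were, at a mean raw count of at least 100, the 8 largest ratios, the 5 largest after GC correction, the 5 lowest in GC, the 3 largest called rises and falls at 48 h (no fall passed) and 2 on each side of the threshold; also the 5 with most reads, and the 2 with most reads of each list. Some of the last group are counted only, and the values of some genes are not reported here. All members of the cholesterol list, the 37 lipid genes, the V-ATPase list and the motif TCACNCCAC were added after values were seen. An earlier version of the lipid genes, split into smaller lists with some genes removed, was discarded in favour of all 37.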

Additional observations from a re-analysis of the deposited data

How the results depend on the processing

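The number of members, 3628, became 5537 at a fold of 1.1, 541 at 1.5 and 1845 with GC-corrected counts, and leaving out a library gave 3710 to 5209, which can only add members because fewer values must pass. Other scalings, count minimums, windows and transcript sets stayed within 1.5 times. The 57 members gained at 48 h vs 0 h became 86 with TMM, 26 with DESeq2, 33 with the 4 libraries of those times and 390 with a GC offset, and 1 to 774 without a library. The 1 lost became 0 with DESeq2 and with the 4 libraries (19 at an unadjusted edgeR p under 0.05), 3 with the GC offset, and 0 to 173 without a library. Neighbouring peaks gained at 12 h (311) became 176 with DESeq2, 609 with 4 libraries and 157 within 20 kb, and 57 to 613 without a library, and those lost (184) became 37 with DESeq2, 544 with 4 libraries and 7 to 554 without a library. The cause was not tested, except that a nearer distance holds fewer peaks. Cholesterol peaks meeting the rule numbered 15 to 17 under the other scalings, count minimums, windows and transcript set, 17 with GC correction, 22 and 4 at folds of 1.1 and 1.5, and 17 to 19 without a library.

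Same-numbered libraries shared only a number: their deviations from the group means correlated at -0.04, -0.05 and 0.08, and with a replicate block 66 members were gained and 1 lost at 48 h, and 327 neighbours gained and 196 lost at 12 h. Of 828 alternative values for 69 named members, given as a description since the rule used these counts, 36 gained a call, 29 lost one, and 1 turned: Tcf7l2 was 0.33 higher at 48 h (log2) without 48 h R2 and changed by -0.52 without 48 h R1. At a depth of 6283103 to 8112895 reads a peak near the minimum of 20 reads varies by counting alone enough to cross a ratio of 1.2.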
